A study of Ciona robusta with 3 samples.

Results

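The early transcription factors of the Ciona robusta cardiopharyngeal lineage described here are 47 genes, of the 159 transcription factor genes that the study sorted by their expression over time and of 17822 genes counted. They are the factors of the study's gene clusters 0 and 1, 25 and 22 genes, without the founder regulators Mesp, Tbx6-r.b and Lhx3/4 and without Ets1/2. Before these genes were left out, clusters 0 and 1 held 50 factors, so 3 of the 4 genes left out lay there. The members were chosen by their measured expression in the same time series, so their courses over time in it are a description with no test. The CRISPR libraries were not used for that choice and were tested.

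The B7.5 lineage of this tunicate, a close invertebrate relative of the vertebrates, starts from founder cells that express Mesp, divide, and give rise to anterior tail muscle (ATM) cells and to trunk ventral cells (TVCs), the migrating multipotent progenitors of the heart and pharyngeal muscle. Transcription factors present in founder cells are known to set up this choice, with T-box proteins of the Tbx6-related group acting upstream of Mesp in ascidian embryos. Members of the list also belong to the basic helix-loop-helix (bHLH), leucine zipper (bZIP), homeodomain, forkhead, HMG-box and nuclear receptor families, which bind DNA through different folds. Nuclear receptors respond to small lipophilic molecules, and Fos and its bZIP relatives act in pairs, often downstream of MAP kinase signalling.

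In the time series, embryos made from pooled eggs of several animals were electroporated with pairs of barcoded reporters driven by the Mesp enhancer, 1 pair for each of 10 time points from 5 to 14 hours post-fertilization (hpf), then fixed, pooled, sorted for GFP and sequenced as 1 library. In the CRISPR experiment, 2 libraries, called repeats 1 and 2, each pooled 4 conditions at 12 hpf that differed in the targeted gene: Foxf, Gata4/5/6, Foxtun4 or control. Electroporation gives mosaic embryos, so targeted cells can keep intact copies. Each time point is thus 1 batch of embryos without replicates, and each CRISPR condition has n = 2 libraries. The study describes 1 library made from the 4 pooled samples, so the 2 repeats may be technical.

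The time series held 2569 cell barcodes and 40785980 unique molecular identifiers (UMIs), of which 2517 cells were used and 1353 were assigned to a time point. Repeats 1 and 2 of the CRISPR experiment held 231 and 638 cells, of which 161 and 463 were assigned, and 7 cell barcodes occurred in both. Clusters were called TVC-like or ATM-like from marker genes, with all 47 members kept out of the genes used for clustering. The time courses below use barcoded cells of lineage clusters that were not ATM-like, called the other lineage cells, which numbered 35, 217, 89, 37, 281, 133, 109 and 86 from 6 to 13 hpf. Only 8 cells at 5 hpf and 13 cells at 14 hpf were available, and no direction was drawn from them. The make-up of these cells changed with time. Clusters in which 4 muscle markers counted, too few for the name ATM-like, held 89.4, 32.6, 81.1 and 21% of the other lineage cells from 7 to 10 hpf. The summed level of the 10 TVC markers in the same cells went from 129 counts per 1000000 UMIs of the sum (CPM) at 6 hpf to 15074 at 12 hpf, and that of the 10 ATM markers from 22185 at 7 hpf to 8561 at 12 hpf. Of the last sum, 6130 CPM came from the marker KY.Chr11.686 alone, which had 2449 CPM at 7 hpf and 1322, 766 and 517 CPM in ATM-like cells at 8, 10 and 11 hpf, so it was lower in the muscle cells than elsewhere. The other 9 ATM markers went from 19736 CPM at 7 hpf to 2431 at 12 hpf. What these shifts add to the courses below was not tested, and fewer expressing cells and less RNA per cell cannot be told apart in summed counts.

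All 47 members had at least 10 UMIs at their early level, the highest CPM of 6, 7 and 8 hpf. Among the time points from 6 to 13 hpf, 35 of these were highest at 6 hpf and 42 somewhere between 6 and 8 hpf. The 8 cells at 5 hpf do not enter the early level, so a fall before 6 hpf is not seen in these calls. In hourly steps from 6 to 13 hpf, their summed level was 6705, 5109, 4192, 3241, 2831, 2894, 2916 and 2640 CPM. Most of the decline therefore lay before 10 hpf. A member was called lost at the earliest later time point with at most 25% of the early level, an upper 95% bound of that ratio under 50%, and no later value above 50% up to 13 hpf. By this rule 17 of 47 members were lost, against 13.4% of the 7809 genes with enough UMIs, but the members were chosen for such courses and nothing is read from the difference. Cluster 0 held 16 of the lost factors and cluster 1 held 1, Cbfb. At 12 hpf the median member stood at 42.1% of its early level, with 26.0% for cluster 0 and 56.2% for cluster 1, beside 76.7% for all genes.

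**Figure D1:**
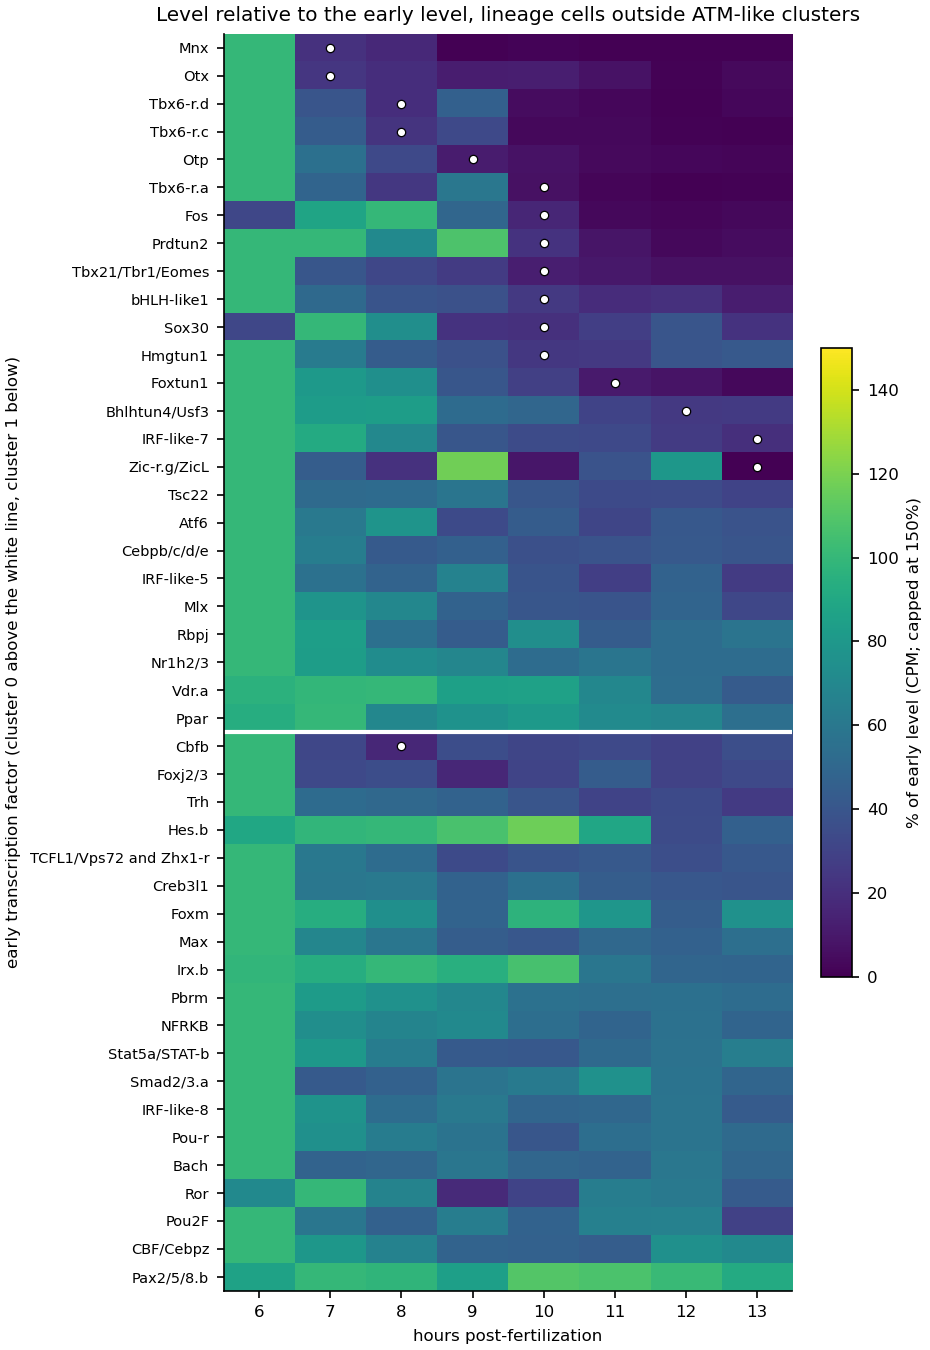
Heat map of CPM at each time point from 6 to 13 hpf as a percentage of the early level, for 45 of the 47 early factors (rows) in the other lineage cells; white dots mark the time point of loss. Loss calls start at 7 hpf with Mnx and Otx. With the early level taken at 7 hpf, they are called lost at 9 and 12 hpf. Of the 17 calls drawn, 7 fall at 10 hpf, and Pax2/5/8.b stays near its early level at 102%.

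The T-box family kept least of its early level. All 4 T-box members were lost, and their median at 12 hpf was 0.79% of the early level. Tbx6-r.a (KY.Chr11.460) had 121, 58.8, 29.7, 71.8, 8.25, 2.78, 0.675 and 0.951 CPM in hourly steps from 6 to 13 hpf. Tbx6-r.c (KY.Chr11.469) had 132, 58.0, 29.7, 43.4, 4.55, 3.90, 1.35 and 0 CPM at the same time points. Tbx6-r.d (KY.Chr11.468) followed with 66.0, 26.3, 12.96, 30.2, 3.41, 1.67, 0 and 1.90 CPM. Each of these 3 had a second, smaller high at 9 hpf, and all were near 0 from 11 hpf on. That high came largely from 1 cell, which held 21 of the 38 UMIs of Tbx6-r.a, 15 of the 23 of Tbx6-r.c and 12 of the 16 of Tbx6-r.d at 9 hpf, and 0 UMIs of Mesp and of Foxf. Without the cluster that holds this cell, left out from 7 hpf on, the levels at 9 hpf were 10.4, 16.7 and 4.18 CPM and Tbx6-r.a was lost at 8 hpf instead of 10 hpf. By their gene numbers, Tbx6-r.d, Tbx6-r.c and Tbx6-r.b lie side by side, and Tbx6-r.a lies some genes away on the same chromosome. Reads could have been split between near-identical copies, so the separate values of the 3 members are uncertain. Tbx21/Tbr1/Eomes (KY.Chr3.529), whose vertebrate relatives act in mesoderm, brain and immune cells, went from 28.9 CPM at 6 hpf to 3.70 at 10 hpf and 2.03 at 12 hpf.

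Homeodomain factors divided into 4 that were lost and 4 that were not. Mnx (KY.Chr10.622), known in vertebrates for motor neuron and pancreas development, had 139, 30.1, 24.4, 0 and 1.99 CPM from 6 to 10 hpf and 0 UMIs at 11, 12 and 13 hpf. It was lost at 7 hpf, and 0 UMIs at 12 hpf put its level there at no more than 1.83% of the early level. Otx (KY.Chr4.867), a factor of the anterior nervous system in many animals, was also lost at 7 hpf. Its levels were 205, 48.5, 40.4, 24.6, 26.2, 14.5, 2.03 and 7.61 CPM from 6 to 13 hpf, a steep step between 6 and 7 hpf followed by a slow decline. The early level of Mnx and Otx rests on 35 cells at 6 hpf. With the early level taken at 7 hpf instead, Mnx was lost at 9 hpf and Otx at 12 hpf. Otp (KY.Chr14.946), which vertebrates use in neuroendocrine cells of the hypothalamus, passed through 319, 177, 106, 35.9, 22.5, 12.2, 8.78 and 6.66 CPM and was lost at 9 hpf. Each of its values lay below the one before it, and 2.75% (1.44 to 4.79%) was left at 12 hpf. Prdtun2 (KY.Chr1.1582), a paired-type homeodomain factor by its name, lay between 13.7 and 20.8 CPM from 6 to 9 hpf and was at 4.27 CPM at 10 hpf and 0.675 at 12 hpf. Its value of 20.8 CPM at 9 hpf rests on 11 UMIs, and without the cluster of the cell high in Tbx6-related UMIs it was 6.27 CPM there, from 3 UMIs, and 2.33 CPM at 10 hpf.

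The other homeodomain members kept much of their level. Irx.b (KY.Chr11.347), of the Iroquois group, lay between 120 and 136 CPM from 6 to 10 hpf and between 61.8 and 75.7 CPM from 11 to 13 hpf. This course was a late step rather than an early one. Pax2/5/8.b (KY.Chr12.443), related to vertebrate factors of kidney, thyroid and ear, was the member above its early level at 12 hpf, with 97.2 CPM, or 102% (83.1 to 124%) of the early level. The POU factors Pou-r (KY.Chr7.486) and Pou2F (KY.Chr4.359) kept 58.0% and 66.0%.

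Among the bHLH factors 2 of 6 were lost. bHLH-like1 (KY.Chr9.350) went from 219 CPM at 6 hpf to 54.6 at 10 hpf and 25.7 at 13 hpf, and Bhlhtun4/Usf3 (KY.Chr4.1211) from 86.7 CPM to 42.7 and 21.9. Hes.b (KY.Chr3.580), of the Hes repressors that Notch signalling induces in many animals, was one of the 3 members that peaked at 10 hpf. Its levels from 6 to 13 hpf were 176, 195, 197, 212, 231, 175, 68.2 and 91.3 CPM. It stayed high until 11 hpf and stood at 34.5% (27.2 to 43.6%) of its early level at 12 hpf, so it was not lost by the rule. Max (KY.Chr5.121), the dimer partner of Myc, kept 46.3% at 12 hpf, Mlx (KY.Chr11.477), a Max-like factor of sugar metabolism, 48.3%, and Trh (KY.Chr11.674), named for the fly tracheal gene trachealess, 33.6%.

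Of the 6 bZIP factors Fos alone was lost. Fos (KY.Chr11.1133), an immediate-early partner in AP-1 dimers, had 20.6, 56.6, 64.8, 32.1, 10.5, 2.227, 1.35 and 1.90 CPM from 6 to 13 hpf. Without the cluster of the cell high at 9 hpf, its level there was 18.8 CPM. Its highest value lay at 8 hpf, and it stood at 2.08% (0.25 to 7.76%) of its early level at 12 hpf. Cebpb/c/d/e (KY.Chr3.743), of a group that drives fat and liver differentiation in mammals, went from 358 CPM at 6 hpf to 152 at 8 hpf and then lay between 131 and 164 CPM. Creb3l1 (KY.Chr2.2188) and Atf6 (KY.Chr13.318), whose relatives sense stress of the endoplasmic reticulum, kept 41.0% and 41.4% at 12 hpf, while Bach (KY.Chr6.369) kept 59.6%.

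Foxtun1 (KY.Chr14.637), a forkhead factor by its name, had one of the most regular courses. Its levels were 388, 312, 289, 155, 111, 41.2, 30.4 and 13.3 CPM from 6 to 13 hpf, and it was lost at 11 hpf. Every time point was lower than the one before it. Foxm (KY.Chr4.979), whose mammalian relative acts in the cell cycle before mitosis, and Foxj2/3 (KY.Chr1.1301) were not lost and kept 44.2% and 29.4% at 12 hpf. Neither had more than 34.4 CPM at any of these time points.

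HMG-box factors showed that a loss call need not be lasting. Hmgtun1 (KY.Chr12.809) went from 388 CPM at 6 hpf to 95.3 at 10 hpf, where it was called lost, and was at 153 CPM at 12 hpf and 162 at 13 hpf. Sox30 (KY.Chr4.941), known from the mammalian testis, had 8.26 CPM at 6 hpf, 25.7 at 7 hpf, 19.1 at 8 hpf and between 5.41 and 10.1 CPM from 9 hpf on. Both were called lost at 10 hpf and stood at 39.5% and 39.3% at 12 hpf. Pbrm (KY.Chr7.473), a subunit of SWI/SNF chromatin remodelling complexes, declined from 491 CPM at 6 hpf to 274 at 10 hpf and kept 55.7% at 12 hpf.

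None of the 4 nuclear receptors was lost. Ror (KY.Chr3.206), an orphan receptor of the retinoic acid receptor-related group, had 594, 832, 556, 149, 253, 528, 506 and 357 CPM from 6 to 13 hpf. Its course was a dip and a return, with the low point at 9 hpf, where clusters with muscle markers made up most of the 37 cells. Between 9 and 12 hpf its level differed more than counting error allows, and at 12 hpf it was at 60.8% (56.1 to 65.9%) of the early level. Nr1h2/3 (KY.Chr2.1479), Vdr.a (KY.Chr2.1584) and Ppar (KY.Chr8.993), related to vertebrate sterol, vitamin D and fatty acid receptors, had at most 66.0, 44.2 and 29.5 CPM and kept 53.2%, 53.4% and 68.6% at 12 hpf.

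The zinc finger factor Zic-r.g/ZicL (KY.Chr6.31), an early regulator of muscle, notochord and nervous system in ascidians, had an irregular course. Its levels from 6 to 13 hpf were 28.9, 12.73, 6.10, 34.0, 2.56, 11.1, 23.0 and 0 CPM, and its loss at 13 hpf rests on 0 UMIs at that time point alone. At 9 hpf 16 of its 18 UMIs came from the cell that also carried the Tbx6-related UMIs, and without that cluster its level there was 4.18 CPM. At 12 hpf its 34 UMIs came from 11 of 109 cells. The remaining 12 members include Cbfb (KY.Chr5.807), the partner of Runx factors, which was lost at 8 hpf with 37.2, 11.9 and 6.10 CPM from 6 to 8 hpf and between 10.8 and 13.3 CPM afterwards. Without the cluster of the cell high at 9 hpf, it was at 4.18 CPM at that time point, from 2 UMIs. The loss call of Cbfb rests on 8 UMIs at 8 hpf. It was not made when 1 barcode of the pair was enough or with all barcoded cells outside ATM-like clusters. With the early level taken at 7 hpf it was not made either. IRF-like-7 (KY.Chr3.1375), an interferon regulatory factor by name, was lost at 13 hpf with 46.8 CPM at 6 hpf and 9.51 at 13 hpf, and its neighbour IRF-like-8 (KY.Chr3.1374) kept 57.9% at 12 hpf. These neighbouring IRF-like genes could also share reads. IRF-like-5 (KY.Chr3.1012) and Tsc22 (KY.Chr7.836) kept 47.4% and 34.1%. CBF/Cebpz (KY.Chr11.1038) kept 75.4%, NFRKB (KY.UAContig35.3), related to a subunit of the INO80 remodelling complex, 55.9%, and TCFL1/Vps72 (KY.Chr3.15) 35.9%. The shares of signalling effectors were 56.6% for Stat5a/STAT-b (KY.Chr1.2426), 57.0% for Smad2/3.a (KY.Chr6.515), a Nodal and activin effector, and 52.8% for Rbpj (KY.Chr2.749), the DNA-binding partner of Notch.

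**Figure D2:**
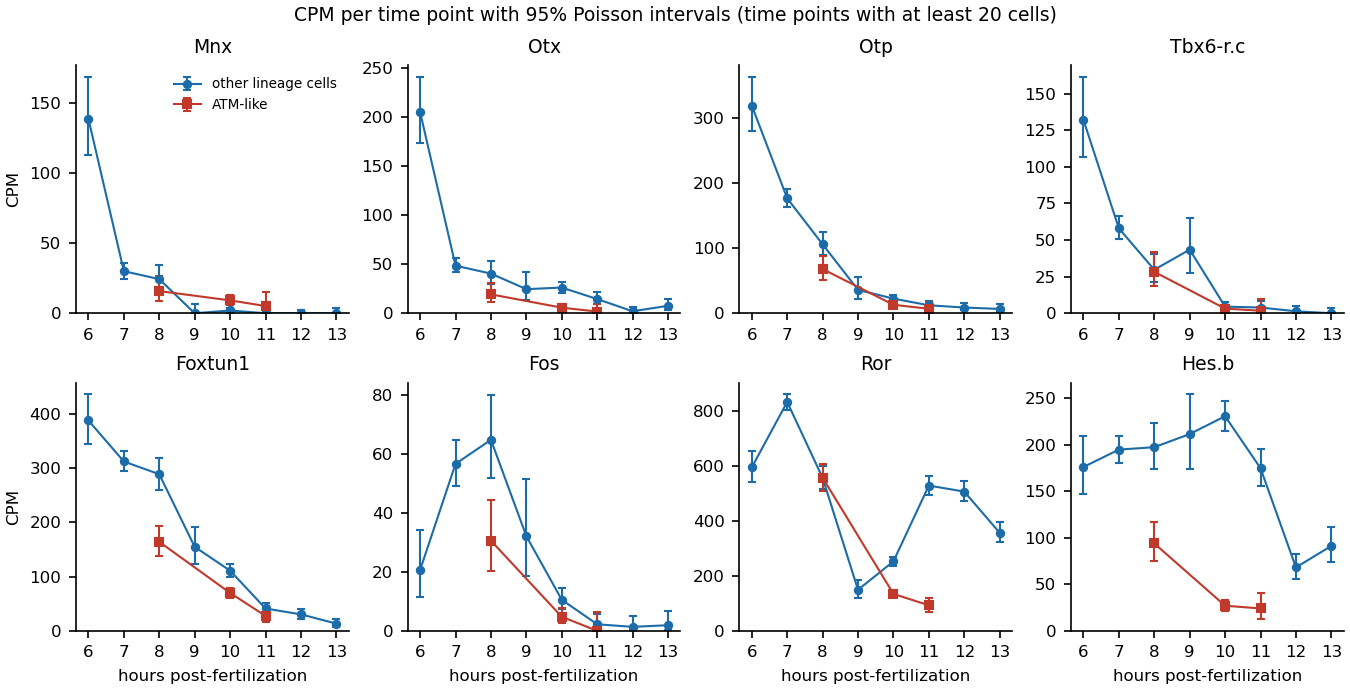
CPM against hpf for 8 early factors in the other lineage cells and, at 8, 10 and 11 hpf, in ATM-like cells; bars are exact Poisson 95% intervals, which cover counting error only, and there are no replicates. Among the time points drawn, which start at 6 hpf, Mnx, Otx and Otp are highest at 6 hpf and Fos peaks at 8 hpf. Ror dips to 149 CPM at 9 hpf before it returns.

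Whether loss differed between muscle and other cells could be compared at 8, 10 and 11 hpf, where 41, 139 and 25 ATM-like cells were available. From 8 to 10 hpf the median gene changed by a log2 ratio of -0.71 in ATM-like and 0.03 in other lineage cells. Read against these medians, 6 of 40 members with enough UMIs had ratios of 10 to 8 hpf whose intervals did not overlap between the classes, beside 19.6% of the 6625 genes compared. For Mnx alone the difference was also at least 4-fold, beside 4.38% of all genes. Neither share of members lay above that of all genes. In ATM-like cells its level was 15.9 CPM at 8 hpf, 9.21 at 10 hpf and 5.16 at 11 hpf. In the other lineage cells it was 24.4, 1.99 and 0 CPM at these times. The ratio of 10 to 8 hpf was 0.58 (0.30 to 1.19) in ATM-like and 0.082 (0.030 to 0.188) in other lineage cells. Mnx thus stayed detectable in muscle after it was nearly gone elsewhere. When the clusters were cut finer (Leiden resolution 2), 35 Mnx UMIs at 8 hpf lay in ATM-like clusters and 7 outside them. In the clusters used above these numbers were 14 and 32. Too few were then left outside for the comparison, and 0 members differed. The fall of Mnx outside ATM-like clusters thus depends on how cells at 8 hpf are classed. When the TVC-like cells alone stood for the other class, Mnx at 10 hpf was 0.765 CPM against 9.21 CPM in ATM-like cells.

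The median gene was lower in ATM-like cells, with log2 ratios of -0.39, -1.16 and -1.72 at 8, 10 and 11 hpf, and the 10 ATM markers alone summed to 44104 CPM there at 10 hpf. Levels of the classes are therefore read against that median. Relative to it, 2 of 45 members were more than 1 log2 unit higher in ATM-like cells at 10 hpf, Mnx by 3.37 and Rbpj by 1.05, beside 13% of all genes with enough UMIs. Another 5 were more than 1 unit lower, beside 14.6% of all genes. Hes.b was the lowest of these, at -1.94, with 27.0 CPM in ATM-like and 231 CPM in other lineage cells. Smad2/3.a followed at -1.52, Cbfb at -1.46, Pax2/5/8.b at -1.05 and Otx at -1.04. All 5 had higher plain CPM in the other lineage cells as well. At 8 hpf, 0 of 44 members lay more than 1 unit above the median and 3 lay below it by that much: Sox30 at -1.68, Irx.b at -1.30 and Creb3l1 at -1.03. Of all genes, 4.58% and 5.48% did so at that time point. At 11 hpf, 4 of 39 lay above, Rbpj at 2.0995, Vdr.a at 1.95, IRF-like-5 at 1.34 and Foxtun1 at 1.13, and 6 lay below, beside 20.1% and 22.6% of all genes. Genes with 0 UMIs in a class have no log2 value and are in neither count. Among the 39 these were Trh and Zic-r.g/ZicL, with 0 UMIs in ATM-like cells and 26 and 20 in the others. At none of the 3 time points was the share of members above the median by this much larger than that of all genes. Rbpj was thus above the median in muscle at both later time points. Foxtun1 and Otp had 10 to 8 hpf ratios of 0.43 (0.34 to 0.53) and 0.19 (0.13 to 0.29) in ATM-like cells against 0.38 (0.33 to 0.44) and 0.21 (0.16 to 0.28) in the others. These plain ratios overlapped, but read against the class medians the log2 difference was 0.89 for Foxtun1, 1 of the 6 members with intervals apart, and 0.59 for Otp.

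The control cells of the CRISPR experiment gave a tested comparison of the classes at 12 hpf. TVC-like and ATM-like control sums held 31 and 61 TVC-like cells and 35 and 92 ATM-like cells in repeats 1 and 2. Otx, Hes.b, Fos, Pax2/5/8.b and Ror were called higher in TVC-like than in ATM-like cells, and Mnx led the members called lower. Of 39 members that passed the filter on low counts, 5 were called higher in TVC-like cells, beside 24.5% of all genes, and 9 lower, beside 22.8% of all genes, so the share of members called was below that of all genes for higher calls and close to it for lower calls. Calls needed an adjusted p under 0.05 and a log2 fold change beyond 0.5 in either direction. The median log2 fold change was -0.12 for the members and 0.10 for all genes.

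Otx had 85.9 and 85.0 CPM in TVC-like cells of repeats 1 and 2 and 5.26 and 5.42 CPM in ATM-like cells. Its log2 fold change was 2.64 ± 0.32 (SE, n = 2, edgeR quasi-likelihood test, Benjamini-Hochberg adjusted p = 8.8e-08). Hes.b had 626 and 703 CPM against 75.8 and 50.1 CPM, a log2 fold change of 2.12 ± 0.32. For Otx and Hes.b, as for Fos, Ror and Pax2/5/8.b below, both TVC-like values lay above both ATM-like values. Fos had 45.6 and 86.8 CPM in TVC-like and 12.6 and 7.11 CPM in ATM-like cells, a log2 fold change of 1.6302 ± 0.42, and Ror had 813 and 876 CPM against 205 and 185 CPM, 0.78 ± 0.17. Pax2/5/8.b, with 166 and 184 CPM against 31.6 and 33.5 CPM, was higher by 1.09 ± 0.22. Levels in TVC-like control cells lay above those of the other lineage cells of the time series at 12 hpf, which had 2.03 CPM for Otx, 1.35 CPM for Fos and 68.2 CPM for Hes.b. The libraries and the cells summed differ, and the part of either in this gap was not tested. Otx and Fos, called lost in the time series, were not near 0 in these TVC-like control cells. Their loss calls therefore hold for the time series alone. The Fos values of the repeats lay on either side of its early level in the time series, 64.8 CPM. The fold changes are smaller than the plain CPM ratios, since edgeR's TMM scaling reads each gene against the bulk of genes.

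Mnx was the member with the largest difference in the other direction. It had 1 UMI and 0 UMIs in TVC-like control cells (1.75 and 0 CPM) and 16 and 55 UMIs in ATM-like control cells (16.8 and 18.6 CPM). The fitted log2 fold change was -5.75 ± 0.85 (edgeR quasi-likelihood test, Benjamini-Hochberg adjusted p = 4.7e-06), and its size depends on how near-empty sums are treated. Rbpj, with 75.3 and 52.4 CPM in TVC-like and 57.9 and 78.2 CPM in ATM-like cells, was called lower at -1.51 ± 0.28. Its plain CPM values overlapped, so that call rests on the scaling. The same holds for Foxtun1 (-1.36 ± 0.31), Vdr.a (-1.14 ± 0.24), Otp (-0.99 ± 0.27), Bhlhtun4/Usf3 (-0.93 ± 0.33), Mlx (-0.68 ± 0.25) and NFRKB (-0.55 ± 0.21), whose plain CPM was either similar in the classes or higher in TVC-like cells. Sox30 was lower at -1.91 ± 0.75 on 2 and 4 UMIs in TVC-like cells. Irx.b missed the threshold (-0.51 ± 0.22, edgeR adjusted p = 0.060) and passed it in a fit with the repeat as a replicate block (-0.52, edgeR adjusted p = 0.041). DESeq2 called 4 higher and 4 lower and did not call Fos, Mlx, Otp, Bhlhtun4/Usf3, Sox30 and NFRKB. Mlx, Bhlhtun4/Usf3, Sox30 and NFRKB also lost their call without the filter on low counts. At a Leiden resolution of 0.5 Mlx, Sox30 and NFRKB lost it.

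The 8 members that were not tested had too few counts at 12 hpf: the 4 T-box factors, Zic-r.g/ZicL, Prdtun2, IRF-like-7 and IRF-like-8. In the fit without the filter, IRF-like-7 was called lower in TVC-like cells (-3.41, edgeR adjusted p = 0.0013). Smad2/3.a, at 1.07 in the comparison as tested (edgeR adjusted p = 0.067), was called higher in that fit (1.17, edgeR adjusted p = 0.038). At a Leiden resolution of 0.5 Smad2/3.a was at 1.43 (edgeR adjusted p = 0.0142) and Creb3l1 was called higher at 1.25 (edgeR adjusted p = 0.00016), against 0.28 as tested (edgeR adjusted p = 0.40). Tbx6-r.a had 7.01 and 2.71 CPM in TVC-like and 3.16 and 2.37 CPM in ATM-like control cells. Zic-r.g/ZicL had 0 UMIs in every CRISPR sum of both classes. At 12 hpf the T-box factors were thus near 0 in progenitors and muscle alike.

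**Figure D3:**
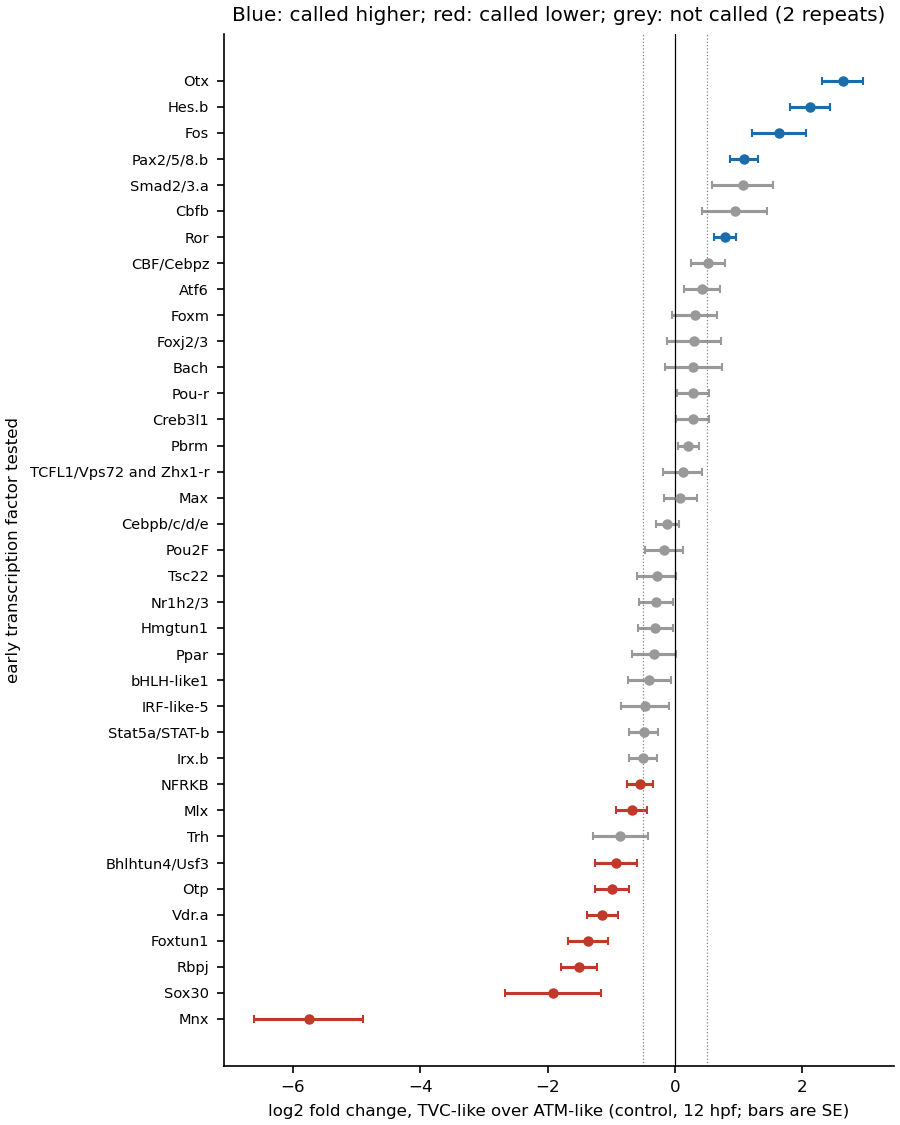
Log2 fold change of control TVC-like over ATM-like cells at 12 hpf for 37 of the 39 early factors tested, with SE bars from the edgeR fit of 2 repeats; blue and red mark factors called higher and lower, and dotted lines the fold threshold of 0.5. Otx and Hes.b lie at the upper end at 2.64 and 2.12, and Mnx at the lower end at -5.75.

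Each targeted gene was lower in TVC-like cells of its own condition. Foxf had 64.1 and 148 CPM after Foxf CRISPR against 577 and 445 CPM in control (log2 fold change -2.01), Gata4/5/6 had 109 and 60.3 against 249 and 246 CPM (-1.65), and Foxtun4 had 110 and 74.1 against 338 and 297 CPM (-1.94), all called by edgeR. The TVC-like sums held 9 and 45 cells for Foxf, 9 and 33 for Gata4/5/6, and 6 and 25 for Foxtun4 in repeats 1 and 2.

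No early factor was called higher or lower in TVC-like cells of a CRISPR condition under the thresholds used. A return could not be asked of Fos and Otx, since TVC-like control cells still held both at the levels given above. Of 37 members tested in TVC-like cells, 0 were called after Foxf CRISPR, beside 1.56% of all genes called higher and 3.1% called lower. After Gata4/5/6 CRISPR 0 of 37 were called, beside 0.109% higher and 0.202% lower, and after Foxtun4 CRISPR 0 of 37, beside 0% higher and 0.0156% lower. At an unadjusted p under 0.05, edgeR had 4, 4 and 1 members in these conditions, and DESeq2, which called 0 too, had 1, 0 and 1. At background shares this low, 0 of 37 is not read as a result about the members.

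Fos and Otx came nearest to the threshold after Foxf CRISPR, and in opposite directions. Fos had 105 and 144 CPM after Foxf CRISPR and 45.6 and 86.8 CPM in control, so both values lay above both controls. Its log2 fold change was 0.96 ± 0.33 (edgeR quasi-likelihood test, Benjamini-Hochberg adjusted p = 0.154). With the repeat as a replicate block it was called higher, at 0.88 ± 0.25 (edgeR adjusted p = 0.047), and without the filter on low counts at 0.94 (edgeR adjusted p = 0.0104). Fos had 28.5 and 62.1 CPM after Gata4/5/6 CRISPR and 10.95 and 64.9 CPM after Foxtun4 CRISPR. Otx had 35.0 and 46.0 CPM after Foxf CRISPR against 85.9 and 85.0 CPM in control, a log2 fold change of -0.94 ± 0.27 (edgeR quasi-likelihood test, Benjamini-Hochberg adjusted p = 0.0505). It was called lower with the replicate block (-0.94, edgeR adjusted p = 0.0489) and at a Leiden resolution of 0.5 (-1.22, edgeR adjusted p = 0.0062). Otx was at 85.4 and 105 CPM after Gata4/5/6 CRISPR and at 76.7 and 60.2 CPM after Foxtun4 CRISPR, so both values after Foxf CRISPR lay below those of every other condition.

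The make-up of the TVC-like cells moved with the Foxf condition. After Foxf CRISPR, 8 of 9 and 31 of 45 TVC-like cells lay in 1 of the 3 TVC-like clusters, against 9 of 31 and 12 of 61 in control. The summed level of the 10 TVC markers was 11046 and 10432 CPM after Foxf CRISPR against 16367 and 17829 CPM in control, and that of the 10 ATM markers 15317 and 14559 against 12027 and 11953 CPM. Without KY.Chr11.686 the ATM sums were 8127 and 6368 CPM against 5104 and 3931 CPM. Markers of cells outside the lineage summed to 140 and 98.4 CPM against 85.9 and 77.7 CPM, with 4 and 3 of the 7 at 0 in either condition. The part of these shifts in the Fos and Otx values was not tested.

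Some rarely counted early factors gave values above control after Foxf CRISPR without a call. Sox30 had 23.3 and 14.06 CPM, from 4 and 11 UMIs, against 3.5 and 3.62 CPM in control, a log2 fold change of 2.15 ± 0.86 (edgeR quasi-likelihood test, Benjamini-Hochberg adjusted p = 0.223). After Foxtun4 CRISPR it had 21.9 and 13.9 CPM, a value of 2.06 ± 0.98 on 2 and 6 UMIs. Prdtun2, under the filter, had 11.65 and 12.78 CPM against 1.75 and 2.71 CPM in control, 2.30 in the fit without the filter (edgeR adjusted p = 0.279). Mnx had 5.83 and 7.67 CPM, from 1 and 6 UMIs, against 1.75 and 0 CPM, 3.127 in that fit (edgeR adjusted p = 0.332). IRF-like-7 had 11.65 and 7.67 CPM against 1.75 and 0.904 CPM, 2.62 in that fit (edgeR adjusted p = 0.349). In all 4 genes both repeats lay above both controls, but with this few UMIs a return was not detectable by the test. Tbx6-r.a, at 11.65 and 6.39 CPM against 7.01 and 2.71 CPM, overlapped with control. Other factors under the filter went lower or changed less in the fit without it. IRF-like-5 was at -1.11 and Tbx6-r.c at -0.79, while Tbx6-r.d was at 0.75, Tbx21/Tbr1/Eomes at 0.28 and IRF-like-8 at 0.13.

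Hes.b, Ror and Foxtun1 gave no call after Foxf CRISPR. Hes.b had 583 and 656 CPM against 626 and 703 CPM in control, a log2 fold change of -0.05 ± 0.37, and its values overlapped those of control. Ror had 501 and 717 CPM against 813 and 876 CPM, -0.40 ± 0.16 (edgeR quasi-likelihood test, Benjamini-Hochberg adjusted p = 0.222). Foxtun1 had 46.6 and 47.3 CPM against 38.5 and 38.9 CPM, 0.31 ± 0.38. After Gata4/5/6 CRISPR the members at an unadjusted p under 0.05 were Trh (1.03 ± 0.48), Foxm (0.74 ± 0.35), Hmgtun1 (0.67 ± 0.30) and Cebpb/c/d/e (-0.44 ± 0.20), and none was called by edgeR.

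**Figure D4:**
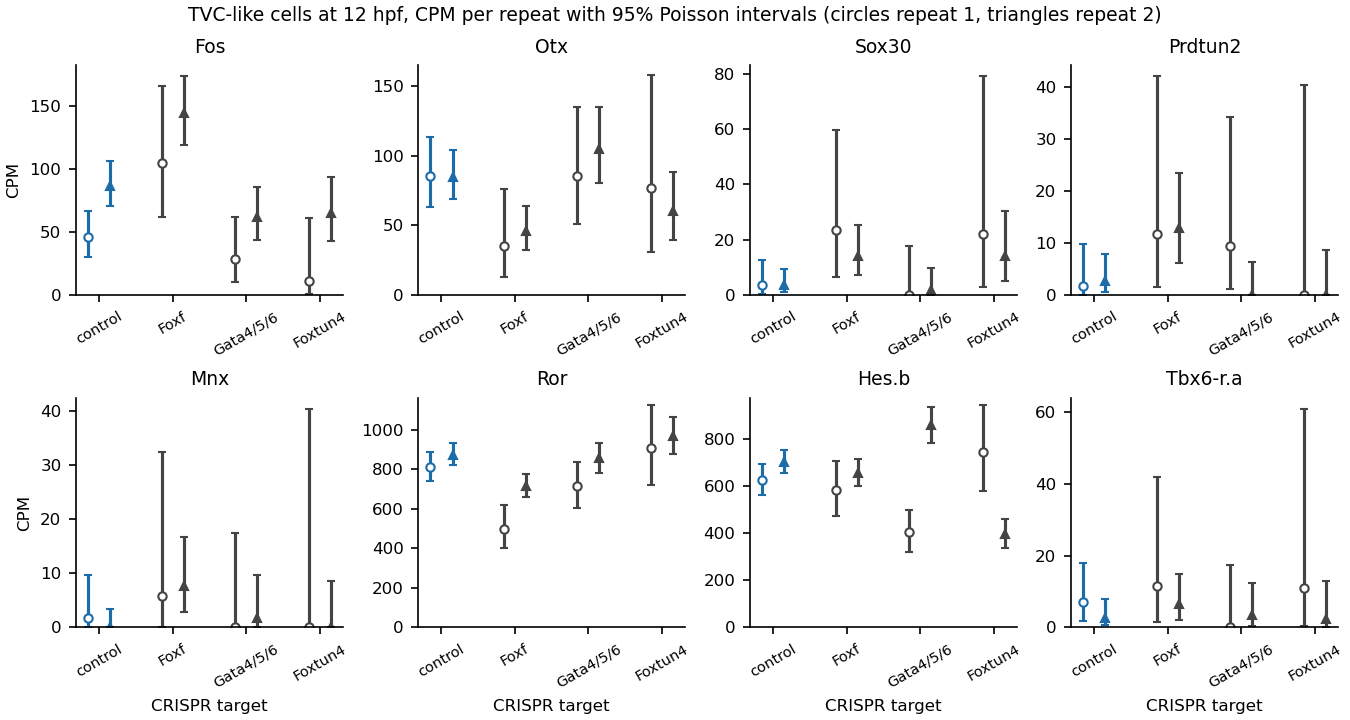
CPM of 8 early factors in TVC-like cells at 12 hpf, by condition, with 1 point for each of the 2 repeats and exact Poisson 95% intervals as bars. Fos lies at 105 and 144 CPM after Foxf CRISPR, above control at 45.6 and 86.8, and Otx at 35.0 and 46.0, below control at 85.9 and 85.0.

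In ATM-like cells, 0 of 35 members tested were called after any of the 3 CRISPR conditions, beside 0% of all genes in each, higher and lower. At an unadjusted p under 0.05, edgeR had 1 member after Foxf CRISPR, 0 after Gata4/5/6 CRISPR and 2 after Foxtun4 CRISPR, and DESeq2 called 0 members. In the interaction test of the Foxf effect between TVC-like and ATM-like cells, 0 of 39 members were called. Of all genes, 0.275% were called with a higher and 0.248% with a lower difference, so this too is not read as a result about the members. DESeq2 called 0 members too. Mnx, Fos and Sox30 had an unadjusted p under 0.05 in that edgeR test, with differences of 3.37 ± 1.38, 1.70 ± 0.74 and 2.62 ± 1.09 and adjusted p of 0.511, 0.555 and 0.512. For Fos the Foxf values in ATM-like cells were 2.81 and 5.80 CPM against 12.6 and 7.11 CPM in control, the opposite order to that in TVC-like cells.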

How the data were processed

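Droplet 3′ single-cell RNA was counted by the authors with Cell Ranger 3.0.1 (named in the submitters' processing notes) on the KY gene models plus 21 barcode features, and the deposited values are counts of UMIs per gene and cell, not normalized. The lineage came from a FACS sort for the Mesp reporter. The members and lists were chosen with earlier results of these data known. Some gene models carry names of more than 1 gene (Cebpb/c/d/e with Nsun2, NFRKB with Cdk8, TCFL1/Vps72 with Zhx1-r). The values of 2 members are not reported here, though both are in the counts.

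Assignment of a cell asked for at least 1 UMI from each barcode of its pair and for 75% or more of all pair UMIs. Which pair stands for which time point or condition came from colour keys of plots in the study's Appendix, and every value by time or condition rests on it. There the condition taken as Foxtun4 is written FoxG. Time series cells with gene numbers between the 1st and 99th percentiles were used. Cells with mixed pairs (137 in the time series, 8 and 2 in the repeats) were dropped and no doublet caller was run, so doublets of 1 pair remain. Cells were clustered with scanpy 1.11.5 (2000 variable genes, 30 principal components, 15 neighbours, Leiden resolution 1), and clusters with at least 50% assigned cells were taken as lineage. A marker counted when at least 20% of the cells had it at 2 times the mean of the other clusters (pseudocount 10 CPM). A name needed 5 of 10 counting markers in the time series and 3 in the CRISPR libraries. It also needed at least 3 times the number counted for the other class and for cells outside the lineage. A cluster with a median UMI count under the median of all cells divided by 3 also needed a marker of its list among its 10 top genes. These minimums were set after the clusters were seen, because founder cells before the fate split already express some muscle genes.

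UMIs were summed per time point and class. CPM has exact Poisson and ratios have conditional binomial 95% intervals (scipy 1.17.1), which cover counting error only. CRISPR sums per repeat, condition and class (at least 5 cells, 91315 to 1106376 UMIs for TVC-like sums and from 356475 to 2953440 for those of ATM-like cells) entered a model in edgeR 4.0.16 (filterByExpr, TMM, R 4.3.3, robust quasi-likelihood test, all conditions in 1 fit, Benjamini-Hochberg adjustment over all genes). The SE was derived from each log2 fold change and its F statistic (their quotient, with the root of F). DESeq2 1.42.0, other normalization, filters, barcode rules, cluster resolutions and marker minimums were alternatives. All members may be named, with values for those with at least 50 UMIs from 6 to 13 hpf (all 47). The scripts were tested on simulated data.

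A repeat number marks 1 library that pooled the 4 conditions. Deviations of same-numbered sums correlated between -0.0187 and 0.0787 in TVC-like cells and between -0.0816 and 0.214 in ATM-like cells, and the model had no repeat term, with a blocked one as an alternative. Nothing says that the repeats are separate batches of embryos, so p-values measure the spread between 2 libraries, which may be technical.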

Additional observations from a re-analysis of the deposited data

Results flagged for a closer look

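In plain CPM, Hes.b went in opposite directions in the classes between 8 and 10 hpf. Its ratio of CPM at 10 over 8 hpf was 0.287 (0.210 to 0.394) in ATM-like cells and 1.17 (1.01 to 1.35) in the other lineage cells. The median gene changed by a log2 ratio of -0.71 in ATM-like and 0.03 in other lineage cells. Read against these medians the log2 difference for Hes.b was -1.29, less than 4-fold. There is 1 library, so the difference was not tested.

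In all, 4 early factors had at least 2 times the level, with intervals apart, in the 1145 cells of the sparsely barcoded clusters, which the comparisons above do not use, compared with the 1372 cells of the lineage clusters. Of the 15333 genes with at least 1 UMI, 20% did so, against 8.51% of the members. Creb3l1 had 343 CPM there against 47.4 CPM, Hes.b 281 against 132 CPM, Otx 123 against 36.5 CPM and Cbfb 21.6 against 10.1 CPM. The lowest members there were Tbx6-r.d at 0.37 CPM, Tbx6-r.c at 0.55 CPM and Tbx6-r.a at 1.47 CPM.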

How the results depend on the processing

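Among the time course settings, the number of lost members was 13 to 18 instead of 17, except with loss set at 50% of the early level, where it was 36, the same 17 included. With the early level taken at 7 hpf it was 13, and the loss call or its time changed for 9 members. Mnx then moved from 7 to 9 hpf, Otx from 7 to 12 hpf, and Tbx6-r.c and Tbx6-r.d from 8 to 10 hpf. Hmgtun1, Tbx21/Tbr1/Eomes, Bhlhtun4/Usf3 and Cbfb were not lost in that setting. With median-of-ratios size factors 7 members changed, Mnx to 8 hpf and Otx to 9 hpf among them. With 3 markers for a name 6 members changed. At a Leiden resolution of 2, 0 members differed between muscle and other cells in their decline. Most Mnx UMIs at 8 hpf then lay in ATM-like clusters, and Mnx could not be compared. In the CRISPR fits, members called higher after Foxf CRISPR in TVC-like cells became 1 without the filter on low counts, and members called lower became 1 at a Leiden resolution of 0.5. With a replicate block, 1 was called higher and 1 lower there. The block also called Irx.b lower in the class comparison and changed no other call of a member. DESeq2 called 4 members lower in the class comparison instead of 9, and the fit without the filter on low counts called 6. No value turned its direction among those called. Leaving out 1 repeat leaves no residual degrees of freedom, so only values remain: all 14 members called between the classes kept their sign without replicate 1, and 12 of 12 with a value without replicate 2.

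The alternative without the cluster of the cell high at 9 hpf, that with 3 markers for a name and that with TVC-like cells alone were chosen after seeing the data. Depth limits the T-box factors, Zic-r.g/ZicL, Mnx and Prdtun2 at 12 hpf, where sums hold few or 0 UMIs. Time points rest on 35 to 281 cells of 1 library, with no error between batches.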

Other observations

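At 5 hpf, from 8 cells with 168507 UMIs, Otx had 920 CPM, Foxtun1 688 CPM, Tbx6-r.a 457 CPM, Tbx6-r.d 291 CPM and Tbx6-r.c 273 CPM, while Mnx and Sox30 had 0 UMIs. At 14 hpf, from 13 cells with 175466 UMIs, the 4 T-box factors, Mnx, Otx, Otp and Prdtun2 had 0 UMIs, Hes.b 125 CPM and Ror 228 CPM. Among the genes left out of the list, Tbx6-r.b was lost at 7 hpf and Mesp at 8 hpf in the other lineage cells, and Lhx3/4 was not lost.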
